A study of Homo sapiens with 5 samples.

Results

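The matrix metalloproteinases (MMPs), the ADAMTS proteases and the tissue inhibitors of metalloproteinases (TIMPs) were examined in polyadenylated RNA of H1 cells, a widely used human embryonic stem cell line, after 30 days of differentiation towards heart muscle. Members were all genes of the deposited tables whose symbol is MMP or ADAMTS followed by a number, or TIMP1 to TIMP4. This gave 47 of 27139 genes, of which 24 are MMP genes, 19 are ADAMTS genes and 4 are TIMP genes. The cultures treated with a YAP inhibitor and Activin for 24 h gave 3 libraries and are called YAPi here. The GiWi cultures, treated with a GSK3 inhibitor and an inhibitor of Wnt/β-catenin signalling for 48 h, gave 2 libraries. Both groups were wild type and came from the same line. The agents and the treatment time differed together, so their parts in any difference cannot be told apart. The study compared the transcriptomes of cardiomyocyte cultures made by these protocols.

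MMPs are zinc-dependent proteases that are made as inactive precursors and cut collagens, gelatin, elastin, laminins and many other proteins outside the cell. ADAMTS enzymes are secreted relatives with thrombospondin repeats, and different members cut proteoglycans such as versican and aggrecan, remove propeptides from procollagens, or act on fibrillin-rich microfibrils. TIMPs bind the active site of MMPs and block it, and TIMP3 also blocks several ADAMTS enzymes. In the developing heart, versican-rich matrix fills the endocardial cushions and the trabeculae, and its cleavage by ADAMTS proteases is a normal step of valve and chamber remodelling.

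The libraries held 43661243 to 48904372 exon counts each. Nothing in the labels says that libraries of a group came from separate cultures, so the spread behind each p-value is that of these libraries alone and could be technical. YAPi replicate 3 stood apart from its group: the chi-square per degree of freedom over genes was 53.5 and 48.4 against replicates 1 and 2, which differed from each other by 2.13, and the GiWi pair by 5.89. The heart muscle label was checked with 8 markers, and all were detected in every group, with summed levels of 3085, 3173 and 1322 CPM in YAPi and 4449 and 4385 CPM in GiWi. By the test described below, 1 of the 8 was higher and 2 were lower in YAPi. The lower sums of YAPi replicates 1 and 2 rest on MYH6. It was at 123, 132 and 49.2 CPM in YAPi and 1878 and 1855 CPM in GiWi. Markers of other cell types also differed. Those of macrophages summed to 441, 450 and 200.4 CPM in YAPi and 6.14 and 6.86 CPM in GiWi, and those of gut epithelium to 490, 471 and 289 CPM in YAPi and 6.62 and 5.35 CPM in GiWi. In bulk RNA, a change in the number of cells of a type and a change in RNA per cell cannot be told apart. Differences between groups are given as log2 fold changes of YAPi over GiWi ± SE from edgeR's quasi-likelihood test, with Benjamini-Hochberg adjusted p over all 17634 genes tested, and a gene rose or fell where that p was under 0.05. Values per library are CPM, counts divided by the library's total and scaled by the TMM method, and levels of different genes are compared only as the authors' FPKM, which is per length. Per-library values run in the order YAPi replicates 1, 2 and 3, then GiWi replicates 1 and 2.

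Of the 47 members, 40 had enough counts to be tested. In YAPi, 17 rose, 16 fell and 7 did not pass the test, so 33 of 40 were called, against 57.1% of all genes tested. Among all genes, 30.2% rose and 26.9% fell. With library size alone in place of TMM factors, 14 members rose and 17 fell, and among all called genes the share that rose was 35.8% in place of 52.9%. On the authors' FPKM with a pseudocount of 1, 13 rose and 18 fell, with 38.0% of all calls being rises. Both a call and a difference of at least 2-fold were seen for 22 of 40 members, 12 higher and 10 lower, against 23.3% of all genes. The per-library values did not overlap between the groups for 38 of 40 members, against 75.8% of all genes tested. The families split by direction. Of the 17 MMP genes tested, 11 rose and 3 fell, with a median log2 fold change of 0.79. Of the 19 ADAMTS genes, 3 rose and 12 fell, with a median of -0.96. Of the 4 TIMP genes, 3 rose and 1 fell, with a median of 2.53, and the median of all genes tested was 0.01. These lists were chosen with earlier results of these data known, and no set test was made. MMP7, MMP9, MMP12 and TIMP4 had enough counts to be tested through YAPi alone, so their rises are no independent sign.

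**Figure D1:**
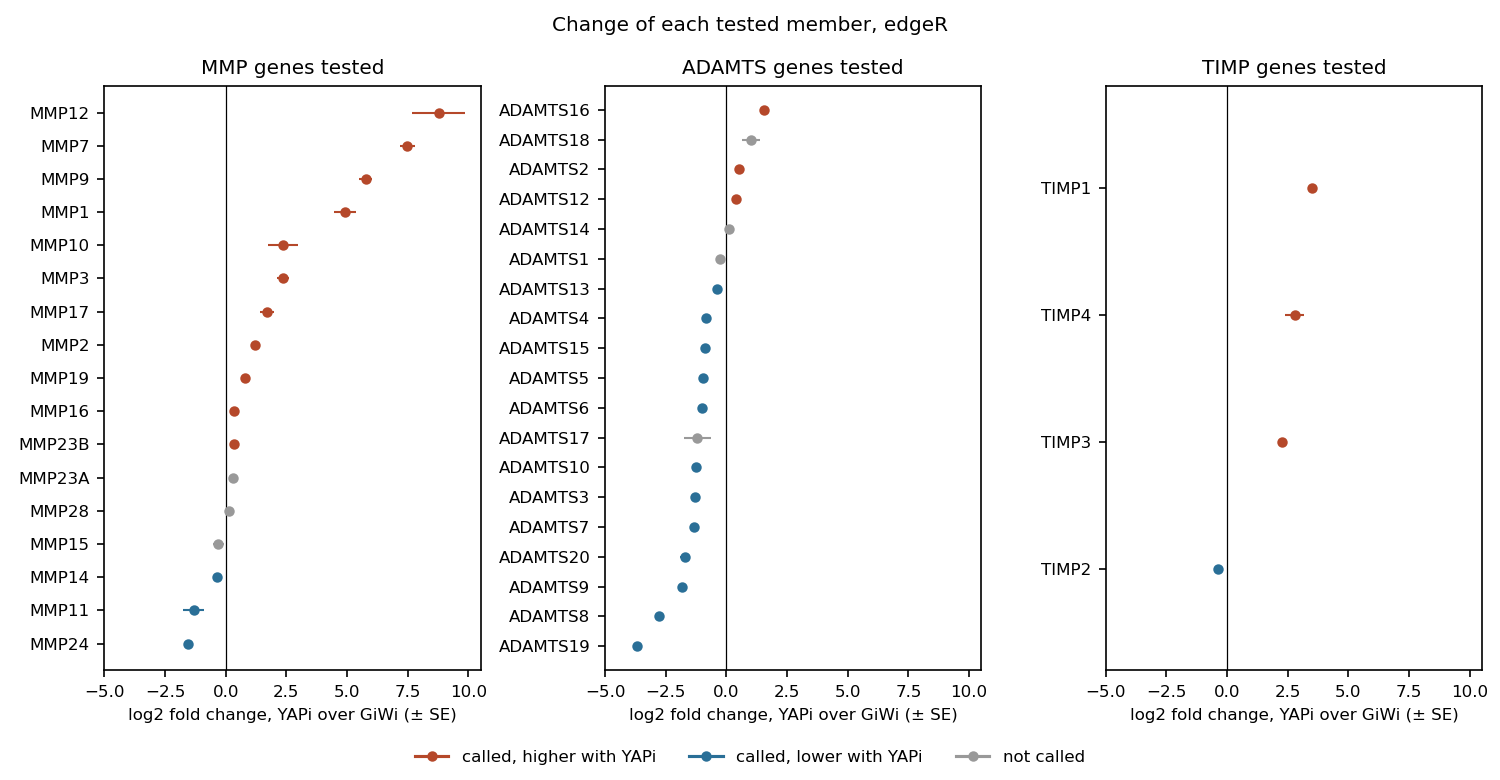
Log2 fold changes of YAPi over GiWi on the x axis, with SE bars, for the 40 members tested by edgeR, by family. Most ADAMTS genes lie left of 0, with ADAMTS19 lowest at -3.67, and most MMP genes lie right of it. The fitted value of MMP12, which has 0 counts in GiWi, depends on the fit and is no bound.

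Inhibitor transcripts made up most of the members' RNA in YAPi and a smaller share in GiWi. The summed FPKM of the TIMP genes was 1810, 1917 and 2346 in YAPi and 297 and 314 in GiWi, which is 70.7, 71.9 and 74.5% of the members' summed FPKM in YAPi and 28.1 and 29.1% in GiWi. The MMP genes summed to 669, 670.0 and 712 FPKM in YAPi and 603 and 611 FPKM in GiWi, and the ADAMTS genes to 81.5, 80.9 and 91.6 FPKM in YAPi and 157 and 155 FPKM in GiWi. Each family's values lay apart between the groups, with TIMP and MMP sums higher in YAPi and ADAMTS sums lower. The direction of the MMP sum rests on MMP2, since without it the MMP genes summed to 335, 329 and 364 FPKM in YAPi and 440.0 and 442 FPKM in GiWi. The ratio of summed MMP to summed TIMP FPKM was 0.370, 0.349 and 0.304 in YAPi and 2.03 and 1.95 in GiWi. These sums weigh each gene by its transcript level and say nothing of protein or activity. They rest largely on TIMP1, since the members without it summed to 1018, 1026 and 1162 FPKM in YAPi and 893 and 902 FPKM in GiWi.

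**Figure D2:**
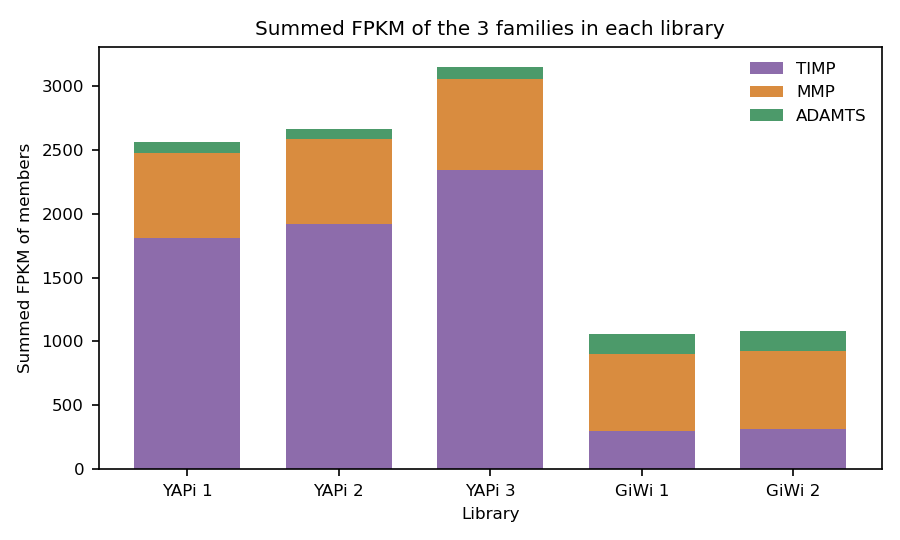
Stacked bars of the summed FPKM of the TIMP, MMP and ADAMTS genes in each library, with the 3 YAPi libraries left of the 2 GiWi libraries. The TIMP sums are 1810 to 2346 in YAPi and 297 to 314 in GiWi.

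TIMP1, a secreted inhibitor of most MMPs, lies on chromosome X (hg19 47441690 to 47446190). It was measured at 1761, 1893 and 2292 CPM in YAPi and at 166 and 188 CPM in GiWi. Every YAPi library was far above both GiWi libraries, with replicate 3 the highest. TIMP1 rose by a log2 fold change of 3.49 ± 0.15 (adjusted p = 5.57e-05), and it took 60.2, 61.6 and 63.1% of the members' FPKM in YAPi and 15.4 and 16.4% in GiWi. TIMP3, the inhibitor that stays bound to the matrix and also blocks several ADAM and ADAMTS enzymes (chromosome 22, hg19 33196802 to 33259028), was at 1483, 1532 and 2062 CPM in YAPi and 339 and 360.1 CPM in GiWi. It too was higher in each YAPi library, by a log2 fold change of 2.28 ± 0.17 (adjusted p = 0.000286). TIMP4, which is known from heart and other muscle, was low throughout, at 0.552, 0.611 and 0.841 CPM in YAPi and 0.0746 and 0.116 CPM in GiWi. The log2 fold change of TIMP4 was 2.78 ± 0.39 (adjusted p = 0.00232), from a level below 1 CPM in every library. With 4 and 6 counts in GiWi, TIMP4 had enough counts to be tested through YAPi alone, so its direction is no independent sign. TIMP2, which inhibits MMP2 and also takes part in its activation, was the 1 inhibitor that fell. Its values were 239, 251 and 283 CPM in YAPi and 325 and 341 CPM in GiWi, lower in each YAPi library by a small margin. The log2 fold change was -0.37 ± 0.08 (adjusted p = 0.013), and the call was lost without YAPi replicate 2 or without either GiWi replicate (adjusted p 0.0520 to 0.0914). Per length, TIMP1 was the most abundant inhibitor in both groups, at 1724 ± 234 FPKM in YAPi and 170 ± 10.4 FPKM in GiWi (SD, n = 3 and n = 2). TIMP3 averaged 244 ± 45.5 FPKM in YAPi and 55.6 ± 1.03 FPKM in GiWi, while TIMP2 averaged 55.7 ± 4.71 FPKM in YAPi and 79.6 ± 0.637 FPKM in GiWi. The order of TIMP2 and TIMP3 was thus opposite in the groups, by more than the spread of the libraries. TIMP1, TIMP3 and TIMP4 each lie within a synapsin gene on the other strand, SYN1, SYN3 and SYN2, and whether the counting used strand is not stated in those sources that were used.

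The promoters of TIMP1 and TIMP3 are shown because these inhibitors moved most among those with high levels. They are the 150 bases before the RefSeq gene start in GRCh38.p14, at chrX:47582286-47582435 and chr22:32801555-32801704, both on the plus strand, 5′ to 3′. Capitals mark the GC box GGGCGG or its complement CCGCCC and, in TIMP1, the AP-1-like letters TGAGTAA.
TIMP1: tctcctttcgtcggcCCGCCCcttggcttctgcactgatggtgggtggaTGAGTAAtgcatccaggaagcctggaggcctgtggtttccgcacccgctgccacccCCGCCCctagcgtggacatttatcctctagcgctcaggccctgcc
TIMP3: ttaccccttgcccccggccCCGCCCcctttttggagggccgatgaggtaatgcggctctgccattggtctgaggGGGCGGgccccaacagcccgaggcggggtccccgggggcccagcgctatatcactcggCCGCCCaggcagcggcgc
In TIMP1, GC box letters start 135 and 45 bases before the gene start and TGAGTAA starts 101 bases before it. In TIMP3, GC box letters within the printed stretch start 131, 76 and 18 bases before the start. Searched on both strands over 250 bases before the start, GGGCGG is found in 42.6% of all 35116 promoters and in 19 of 28 member promoters, and TGAGTAA, a search added after the TIMP1 promoter had been seen, in 2.21% of all and in 1 of 28. A match describes letters only, and no binding was measured.

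MMP2 and MMP14 were the most abundant proteases of the set per length in both groups, and they moved in opposite directions. MMP2, the gelatinase that is made by mesenchymal cells and cuts gelatin and basement membrane collagen (chromosome 16, hg19 55513081 to 55540603), was at 1391, 1427 and 1464 CPM in YAPi and 602 and 648 CPM in GiWi. All YAPi libraries lay above both GiWi libraries, with a log2 fold change of 1.19 ± 0.06 (adjusted p = 9.28e-05). MMP14, the membrane-bound enzyme that activates MMP2 on the cell surface with TIMP2 as a bridge (chromosome 14, hg19 23305742 to 23316808), was at 840.1, 848 and 999 CPM in YAPi and 1145 and 1176 CPM in GiWi. The values were lower in every YAPi library, least so in replicate 3, and the log2 fold change was -0.37 ± 0.09 (adjusted p = 0.0158). That call was lost without any 1 library other than YAPi replicate 3 (adjusted p 0.0541 to 0.0964), without which it held at -0.46. Within a library, the ratio of MMP14 to TIMP2 FPKM did not follow the group. It was 3.59, 3.44 and 3.598 in YAPi and 3.58 and 3.52 in GiWi, with means of 3.54 ± 0.0853 in YAPi and 3.55 ± 0.0489 in GiWi (SD), and the ranges overlapped (exact two-sided permutation p = 1). This does not show that the ratios were equal. In contrast, the ratio of MMP2 to TIMP2 was 6.43, 6.30 and 5.71 in YAPi and 2.06 and 2.11 in GiWi, and that of MMP2 to MMP14 was 1.79, 1.83 and 1.59 in YAPi and 0.574 and 0.599 in GiWi. TIMP1 to TIMP2 was 29.7, 30.3 and 32.6 in YAPi and 2.05 and 2.21 in GiWi. For each of these 3 ratios the groups did not overlap, and the exact two-sided permutation p was 0.1, the smallest that 3 against 2 libraries allow. With 4 ratios tested, none can pass 0.05 in this design.

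**Figure D3:**
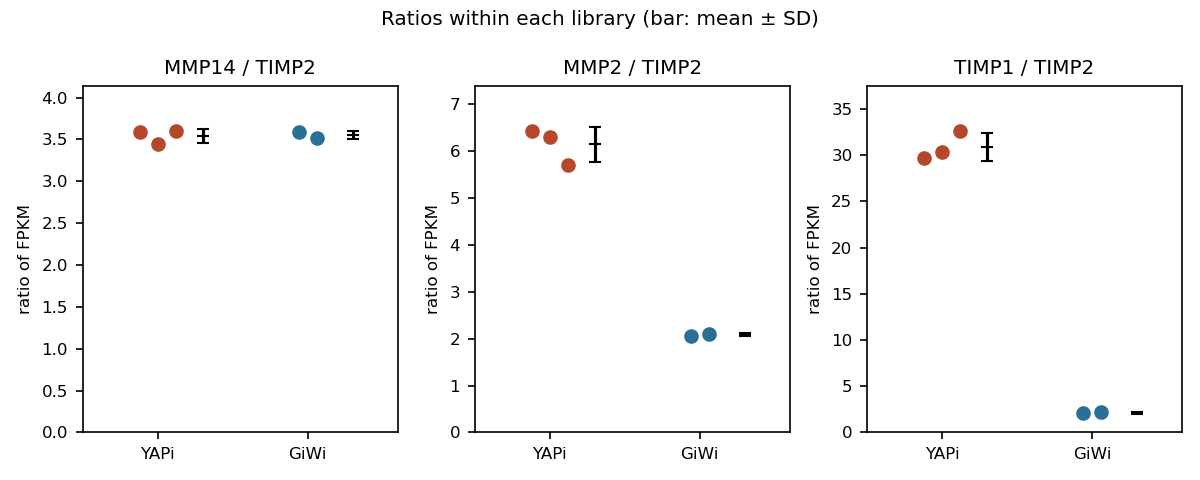
Ratio of FPKM within each library (points) on a linear y axis from 0, with mean ± SD bars beside each group, for MMP14 to TIMP2, MMP2 to TIMP2 and TIMP1 to TIMP2, with YAPi left of GiWi. The MMP14 to TIMP2 ratio is 3.44 to 3.598 in all libraries, while the points of the other two ratios lie apart between the groups.

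Among the other membrane-type enzymes, MMP24, a protease known from the nervous system, fell. It was at 27.1, 28.2 and 36.5 CPM in YAPi and 86.0 and 94.0 CPM in GiWi, so the YAPi libraries all lay below the GiWi libraries. Its log2 fold change was -1.56 ± 0.14 (adjusted p = 0.00052). MMP24-AS1 lies on the opposite strand and had mean counts of 1619 in YAPi and 1865 in GiWi, which without a known strand setting cannot be told apart from reads of MMP24 where they overlap. MMP16, another transmembrane MMP, rose by a log2 fold change of 0.34 ± 0.05 (adjusted p = 0.00341), a call that was lost with library size alone and on the FPKM scale. MMP17, which is held to the membrane by a lipid anchor, rose by 1.69 ± 0.29 (adjusted p = 0.00471) at 0.860 ± 0.134 CPM in YAPi and 0.265 ± 0.0471 CPM in GiWi, a call lost without GiWi replicate 2 (adjusted p = 0.0530). MMP15 was at 162, 171 and 99.4 CPM in YAPi and 175 and 183 CPM in GiWi and did not pass the test (adjusted p = 0.289), with replicate 3 far below the other libraries. MMP25, a leukocyte enzyme, had too few counts to be tested.

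A run of 9 MMP genes on chromosome 11 (hg19 102391239 to 102826463, 435 kb) holds MMP7, MMP20, MMP27, MMP8, MMP10, MMP1, MMP3, MMP12 and MMP13 in this order. The 5 of them that could be tested all rose in YAPi, against 30.2% of all genes tested, and the other 4 had too few counts. All 5 were below 3 CPM in both GiWi libraries. MMP7 and MMP12, with at most 3 counts in a GiWi library, passed the filter on counts through YAPi alone, so their direction is no independent sign. MMP1, the interstitial collagenase that cuts fibrillar collagens, was at 104.8, 84.0 and 46.0 CPM in YAPi and 2.97 and 2.20 CPM in GiWi. The lowest YAPi value, in replicate 3, was still many times the GiWi values, and the log2 fold change was 4.92 ± 0.45 (adjusted p = 0.00055). MMP7, or matrilysin, a small protease made mainly by glandular epithelium, was at 6.63, 7.94 and 7.24 CPM in YAPi and 0.0560 and 0.0193 CPM in GiWi. Its YAPi values lay close together, and GiWi was near 0, with a log2 fold change of 7.49 ± 0.31 (adjusted p = 5.42e-05).

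MMP3 and MMP10, the stromelysins, which cut proteoglycans and laminin and can activate other MMPs, were lower than MMP1 in every YAPi library per length. MMP3 was at 1.47, 1.69 and 1.24 CPM in YAPi and 0.299 and 0.271 CPM in GiWi, a log2 fold change of 2.35 ± 0.26 (adjusted p = 0.000985). MMP10 was at 4.12, 3.71 and 12.4 CPM in YAPi and 1.12 and 1.51 CPM in GiWi. All YAPi libraries were above GiWi, but replicate 3 was far above the other two. The log2 fold change of MMP10 was 2.36 ± 0.64 (adjusted p = 0.0236) and was 1.58 ± 0.15 without replicate 3, and the call was lost without either GiWi replicate (adjusted p 0.109 to 0.143). MMP12, the macrophage elastase, had 152.5 counts over the YAPi libraries, at 1.68, 1.13 and 0.643 CPM, and 0 counts in GiWi. It was at least 41.2-fold higher in YAPi against a floor of 3 counts over the GiWi group (adjusted p = 0.00275), and this bound covers counting error only. MMP13, a collagenase of cartilage and bone, had 55.5 counts in YAPi and 3 in GiWi, most of them from replicate 3. Its CPM values were 0.106, 0.141 and 1.09 in YAPi and 0.0373 and 0.0386 in GiWi, a ratio of 15.0 with an exact 95% counting interval of 4.92 to 75.5 and no test. WTAPP1 lies on the opposite strand across MMP1 and MMP3 and had mean counts of 9.17 in YAPi and 93 in GiWi, opposite in direction to both genes.

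**Figure D4:**
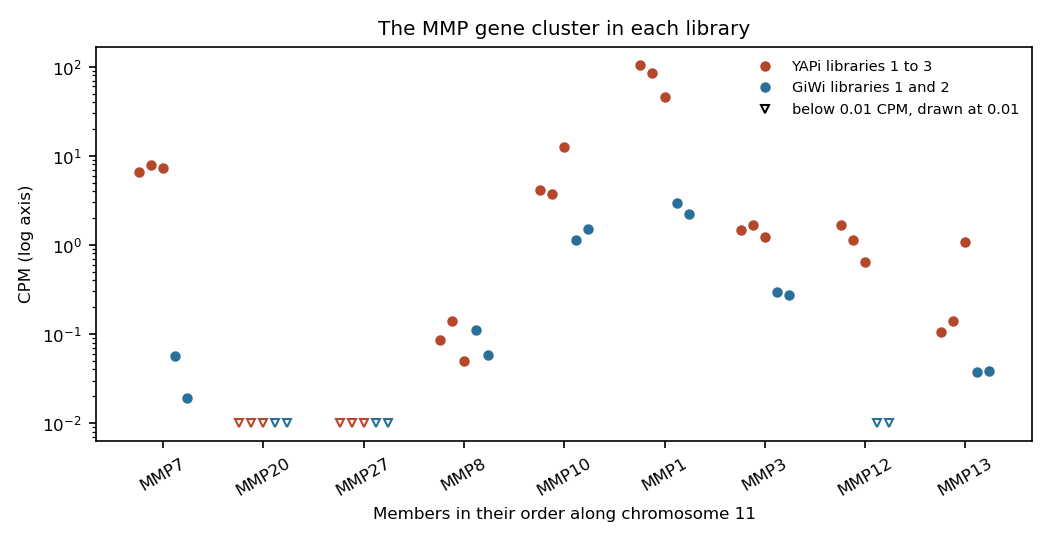
CPM on a log y axis of the 9 chromosome 11 MMP genes in each library, with triangles for values below 0.01 CPM, in their order along the chromosome, with YAPi left of GiWi within each gene. MMP1, MMP7, MMP10, MMP3 and MMP12 are higher in every YAPi library, MMP13 is highest in YAPi replicate 3 at 1.09, and MMP8, MMP20 and MMP27 are at or near 0.

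Marker levels stand beside these genes, because several are known from particular cell types. All 10 of 10 macrophage markers and all 6 of 6 gut epithelium markers rose in YAPi, against 30.2% of all genes tested, and C1QB and CD163 were at 0 in GiWi. CD14, PTPRC, C1QA, C1QB, CD163, TYROBP and ITGAM were at 0.0746 CPM or less in each GiWi library. CSF1R, at 0.112 and 0.193 CPM in GiWi, and the gut marker CDX2, at 0.224 and 0.116 CPM in GiWi, fell short of the filter's minimum in at least 1 GiWi library. All of these genes needed the YAPi libraries to pass the filter on counts, so their direction is no independent sign. Macrophage markers in replicate 3 summed to 200.4 CPM, below 441 and 450 CPM in replicates 1 and 2, and the markers of gut epithelium and heart muscle were lowest in that library too. MMP1, MMP3, MMP9 and MMP12 had their lowest YAPi values there, whereas MMP10 was highest there and MMP7 was not lowest. Markers of neutrophils and mast cells summed to 7.50, 7.26 and 8.93 CPM in YAPi and 4.50 and 4.27 CPM in GiWi, with ELANE at 0 in YAPi and TPSAB1 at 0 in GiWi. The part of any cell type in these protease levels was not tested. The sequences before MMP7 and MMP10 are shown because, of the 5 cluster genes that rose, these were matched in the RefSeq table. They are the 150 bases before the RefSeq start in GRCh38.p14, at chr11:102530748-102530897 and chr11:102780629-102780778, both on the minus strand, 5′ to 3′. Capitals mark TATAAA and, in MMP7, the AP-1 letters TGAGTCA.
MMP7: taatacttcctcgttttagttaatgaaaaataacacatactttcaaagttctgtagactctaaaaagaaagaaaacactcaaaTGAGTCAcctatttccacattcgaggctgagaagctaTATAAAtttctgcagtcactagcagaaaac
MMP10: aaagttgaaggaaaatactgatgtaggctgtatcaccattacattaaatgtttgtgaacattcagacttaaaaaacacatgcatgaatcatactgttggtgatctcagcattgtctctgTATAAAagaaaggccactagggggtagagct
TATAAA starts 30 bases before the start of MMP7 and 31 before that of MMP10, and TGAGTCA starts 67 bases before that of MMP7. Over 250 bases and both strands, TATAAA is found in 10.7% of all promoters and in 7 of 28 member promoters, and TGAGTCA in 4.20% and in 1 of 28. The GC content of the 250 bases was 33.6% for MMP7 and 34.4% for MMP10, against a median of 58% over all promoters.

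Outside the cluster, MMP9, the gelatinase of neutrophils and macrophages (chromosome 20, hg19 44637547 to 44645200), was at 9.86, 9.87 and 6.95 CPM in YAPi and 0.168 and 0.155 CPM in GiWi. The groups were far apart, with a log2 fold change of 5.76 ± 0.28 (adjusted p = 7.69e-05), and replicate 3 was the lowest YAPi library. With 9 and 8 counts in GiWi, MMP9 passed the filter on counts through YAPi alone, so its direction is no independent sign. Per length, MMP9 averaged 3.03 ± 0.580 FPKM in YAPi, well below MMP2 at 341 ± 7.23 FPKM. MMP11, a stromelysin that furin activates inside the cell, was the 1 secreted MMP that fell. It was at 40.2, 39.5 and 102.1 CPM in YAPi and 153 and 150.2 CPM in GiWi, so replicate 3 lay between the other YAPi libraries and GiWi. The log2 fold change was -1.32 ± 0.44 (adjusted p = 0.0442), and -1.93 ± 0.05 without replicate 3. Without any other single library the call was lost (adjusted p 0.101 to 0.158). MMP19 rose by 0.79 ± 0.12 (adjusted p = 0.00292), and MMP28, or epilysin, did not pass the test (adjusted p = 0.422). MMP23A and MMP23B overlap on chromosome 1 and may share reads, so their values of 0.31 ± 0.11 (adjusted p = 0.0557) and 0.34 ± 0.11 (adjusted p = 0.0429) are uncertain and not independent. The transcript listed for MMP23A is a non-coding one. Both genes are in the MMP sums, where shared reads would count for each. MMP23A was at 18.5, 18.4 and 20.1 FPKM in YAPi and 15.3 and 18.4 FPKM in GiWi. The MMP23B call was lost without YAPi replicate 1 or 2 or GiWi replicate 1 (adjusted p 0.0728 to 0.204), with library size alone (0.236) and on the FPKM scale (0.115 to 0.123).

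Most ADAMTS genes that cut versican and other large proteoglycans fell in YAPi. Of 7 such genes, 6 fell, 0 rose and 1 did not pass the test, while 26.9% of all genes tested fell. ADAMTS9, which cuts versican (chromosome 3, hg19 64501331 to 64673365), was at 72.6, 74.2 and 87.6 CPM in YAPi and 279 and 281 CPM in GiWi. Each YAPi library was far below both GiWi libraries, with a log2 fold change of -1.84 ± 0.09 (adjusted p = 8.86e-05). ADAMTS8 (chromosome 11, hg19 130274818 to 130298888) was at 11.4, 11.4 and 8.60 CPM in YAPi and 70.3 and 74.4 CPM in GiWi, a log2 fold change of -2.79 ± 0.13 (adjusted p = 7.39e-05). ADAMTS20, known in mice for a role in pigment pattern, was low, at 2.17, 1.55 and 1.43 CPM in YAPi and 6.06 and 5.26 CPM in GiWi. It too was lower in each YAPi library, with a log2 fold change of -1.72 ± 0.21 (adjusted p = 0.00155). ADAMTS4 and ADAMTS5, the main aggrecan-cutting enzymes of cartilage, fell, with log2 fold changes of -0.86 and -0.96, and ADAMTS15 fell with -0.89. ADAMTS1, a versican-cutting enzyme of the developing heart, was at 121, 121 and 154 CPM in YAPi and 155 and 161 CPM in GiWi. Replicate 3 came close to GiWi while replicates 1 and 2 were lower, and the log2 fold change of -0.26 ± 0.12 did not pass the test (adjusted p = 0.115). Without replicate 3 it was -0.38 ± 0.05 (adjusted p = 2.2e-07). Markers of other cell types differed between the groups as well. Those of epicardium and mesothelium summed to 225, 235 and 442 CPM in YAPi and 993 and 1060 CPM in GiWi, with 4 of 6 lower and 0 higher, and WT1 and ALDH1A2 had log2 fold changes of -3.63 and -3.31. Of 8 fibroblast and mesenchyme markers, 5 fell and 2 rose, with sums of 3405, 3345 and 3365 CPM in YAPi and 2250 and 2128 CPM in GiWi. The direction of these sums rests on LUM, at 2300, 2251 and 2079 CPM in YAPi and 300.5 and 260.3 CPM in GiWi. Cartilage markers summed to 108, 104 and 109.7 CPM in YAPi and 410 and 421 CPM in GiWi, with 1 of 7 lower and 3 higher. The direction of these sums rests on the 1 marker that fell, COL2A1. It was at 38.8, 37.6 and 56.4 CPM in YAPi and 367 and 374 CPM in GiWi. The part of these cell types in the ADAMTS levels was not tested.

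**Figure D5:**
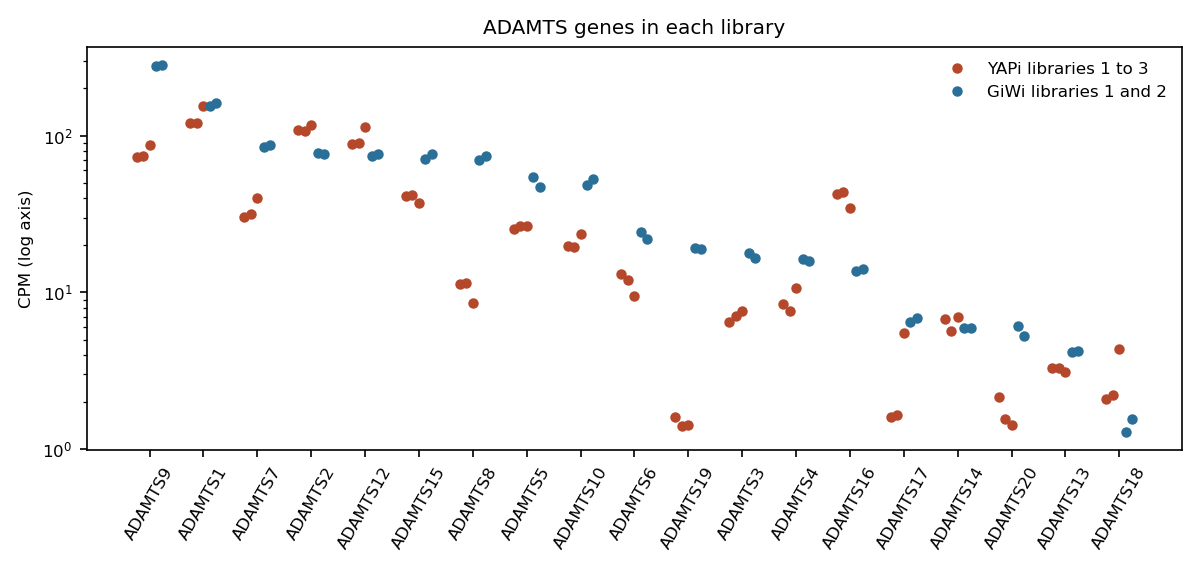
CPM of the ADAMTS genes in each library on a log axis, with YAPi points left of GiWi points within each gene. ADAMTS16 is higher in YAPi, and ADAMTS19, ADAMTS8 and ADAMTS9 lie furthest below GiWi.

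Among the ADAMTS genes tied to fibrillin microfibrils or close to one that is, 3 of 4 fell, 0 rose and 1 did not pass the test. Of all genes tested, 26.9% fell. ADAMTS19, the close relative of ADAMTS17 (chromosome 5, hg19 128795958 to 129074376), was at 1.61, 1.41 and 1.43 CPM in YAPi and 19.2 and 18.8 CPM in GiWi. Its libraries lay close together within each group, and its log2 fold change of -3.67 ± 0.10 (adjusted p = 2.21e-05) was the lowest of all members tested. ADAMTS19-AS1, on the opposite strand, had mean counts of 5.33 in YAPi and 42.5 in GiWi, the same direction as the gene. Likewise ADAMTS9-AS1 had mean counts of 16.3 in YAPi and 147 in GiWi, whereas ADAMTS9-AS2 had 62.3 in YAPi and 43 in GiWi. ADAMTS10, in which human mutations cause Weill-Marchesani syndrome, was at 19.9, 19.5 and 23.7 CPM in YAPi and 48.2 and 52.7 CPM in GiWi. All YAPi libraries were below GiWi, with a log2 fold change of -1.26 ± 0.10 (adjusted p = 0.000386). ADAMTS6, needed for heart development in mice, was at 13.1, 11.9 and 9.44 CPM in YAPi and 24.4 and 21.8 CPM in GiWi, a log2 fold change of -1.003 ± 0.15 (adjusted p = 0.00266). ADAMTS17 was at 1.61, 1.65 and 5.51 CPM in YAPi and 6.51 and 6.86 CPM in GiWi and did not pass the test (-1.20 ± 0.56, adjusted p = 0.118). Its replicate 3 lay near GiWi, and without that library the log2 fold change was -2.03 ± 0.12. ADAMTS17 and MMP15 are given per library because of replicate 3, a choice made after their values were seen.

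The promoter of ADAMTS19 is shown as that of the member with the lowest log2 fold change. It is the 150 bases before the RefSeq start in GRCh38.p14, chr5:129460148-129460297, on the plus strand, 5′ to 3′, with capitals marking the GC box letters CCGCCC, which start 6 bases before the gene start.
ADAMTS19: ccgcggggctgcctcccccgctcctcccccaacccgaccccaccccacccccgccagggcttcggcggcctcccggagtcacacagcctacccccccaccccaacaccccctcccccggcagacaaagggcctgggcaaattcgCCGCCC
Its 250 bases have a GC content of 69.2% and hold neither TATAAA nor TGAGTCA. RefSeq promoters were matched for 27 of the 47 members.

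ADAMTS genes with other substrates moved in both directions. Of the 3 procollagen propeptidases, ADAMTS2 rose by 0.53 ± 0.06 (adjusted p = 0.00107), ADAMTS14 did not pass the test (adjusted p = 0.450) and ADAMTS3, which is also known to process the lymphatic growth factor VEGFC, fell. ADAMTS3 was at 6.46, 7.07 and 7.66 CPM in YAPi and 17.8 and 16.7 CPM in GiWi, with no overlap and a log2 fold change of -1.29 ± 0.10 (adjusted p = 0.000311). The COMP-cutting pair differed in direction. ADAMTS7 was at 30.3, 31.8 and 39.9 CPM in YAPi and 84.7 and 87.6 CPM in GiWi, a log2 fold change of -1.34 ± 0.12 (adjusted p = 0.000583). ADAMTS12 rose by 0.37 ± 0.12 (adjusted p = 0.0453), a call that was lost without YAPi replicate 2 or either GiWi replicate (adjusted p 0.0584 to 0.197), with library size alone (0.196) and on the FPKM scale (0.167 to 0.179). ADAMTS16 (chromosome 5, hg19 5140443 to 5320415) was the ADAMTS gene with the largest rise, at 42.4, 43.9 and 34.4 CPM in YAPi and 13.6 and 14.1 CPM in GiWi. Every YAPi library was above GiWi, with a log2 fold change of 1.54 ± 0.12 (adjusted p = 0.000358). Its close relative ADAMTS18 was at 2.88 ± 1.28 CPM in YAPi and 1.43 ± 0.196 CPM in GiWi and did not pass the test (adjusted p = 0.0677). ADAMTS13, the protease that cuts von Willebrand factor, fell by 0.38 on the log2 scale (adjusted p = 0.0399), a call lost without any 1 library other than YAPi replicate 3 (adjusted p 0.107 to 0.173), under DESeq2 (0.0766) and with no filter (0.0518).

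Neighbouring ADAMTS genes shared the sign of their log2 fold change, but not all passed the test. ADAMTS8 and ADAMTS15, 19.98 kb apart on chromosome 11, both fell. ADAMTS1 and ADAMTS5, 72.5 kb apart on chromosome 21, had log2 fold changes of -0.26 and -0.96, and the first did not pass the test.

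The 7 members without enough counts for a test were MMP8, MMP13, MMP20, MMP21, MMP25, MMP26 and MMP27. MMP26 and MMP27 were listed at 0 in all 5 libraries. Averages were below 1 CPM in both groups for 9 of the 47 members, a level at which a small difference is hard to detect at this depth. These were the 7 without a test and TIMP4 and MMP17, which were tested and rose.

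Some members stood apart in YAPi replicate 3. Of the 40 members tested, 10% were at least 2-fold apart between replicate 3 and the mean of replicates 1 and 2, against 4.63% of all genes tested. These were MMP10, ADAMTS17 and MMP11, which were higher in replicate 3, and MMP1, which was lower. Without replicate 3, 37 of 40 members were called, 19 higher and 18 lower, against 74.9% of all genes tested in that fit. The 4 added calls were ADAMTS1, ADAMTS17, ADAMTS18 and MMP23A.

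Other genes of the pathway were taken from 5 lists that hold no member. Their counts stand against 30.2% of all genes tested that rose and 26.9% that fell. Of 7 ADAMTS-like genes and papilin, 2 rose and 4 fell. ADAMTSL2, which binds fibrillin microfibrils, was at 5.59, 6.30 and 8.70 CPM in YAPi and 37.7 and 42.5 CPM in GiWi (log2 fold change -2.55 ± 0.19, adjusted p = 0.000278). THSD4 and PAPLN had log2 fold changes of -1.63 and -1.80. As in the ADAMTS genes, more of these relatives without protease activity fell than rose. Of 12 other protease inhibitors, 7 rose and 4 fell. SERPINE2 rose by 2.85, TFPI2 fell by 1.43 on the log2 scale, and RECK, a membrane-anchored inhibitor of MMPs, fell by 0.72 on that scale. The direction thus differed between inhibitor genes, as it did among the TIMPs.

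Of 11 genes for activating proteases and their partners, 7 rose and 2 fell. FURIN, which activates membrane-type MMPs, did not pass the test (0.07 ± 0.06, adjusted p = 0.343), and its sign turned under other scalings. PCSK6 rose by 1.55, PLAU, the urokinase, by 2.72, TMPRSS2 by 6.57 and HPN by 4.51 on the log2 scale, while PLAT fell by 0.28 on that scale. With 9 and 8 counts in GiWi, TMPRSS2 passed the filter on counts through YAPi alone, so its direction is no independent sign. TMPRSS2 and HPN are known from epithelia, and all 6 of 6 markers in the general epithelium list rose as well, against 30.2% of all genes tested. These markers summed to 3050, 3180 and 3509 CPM in YAPi and 1858 and 2046 CPM in GiWi, highest in YAPi replicate 3. TMPRSS2, at 17.1, 17.1 and 12.6 CPM in YAPi, and HPN, at 49.4, 50.2 and 34.1 CPM, had their lowest YAPi values in that library. So did EPCAM of the list, at 211, 205 and 111 CPM in YAPi. The part of epithelial cells in the levels of TMPRSS2 and HPN was not tested. Of 15 other metalloproteases tested, 9 rose and 5 fell. MEP1A, a meprin of gut and kidney epithelium, rose by 7.49 and ADAM9 by 0.87, while TLL1, a tolloid protease needed for heart septation in mice, fell by 3.71 on the log2 scale. Of 22 substrate genes, 15 rose and 4 fell, against 30.2% and 26.9% of all genes tested. VCAN, the versican gene, was at 2522, 2482 and 2667 CPM in YAPi and 639 and 624 CPM in GiWi, and it rose by 2.02 ± 0.06 (adjusted p = 2.46e-05) while ADAMTS4, ADAMTS5, ADAMTS9, ADAMTS15 and ADAMTS20, which can cut it, fell, and ADAMTS1 did not pass the test. COMP, cut by ADAMTS7 and ADAMTS12, rose by 8.82 and ACAN, the aggrecan gene, by 2.15 at levels below 2 CPM, a call lost without either GiWi replicate (adjusted p 0.0956 to 0.118) and on log2(FPKM + 1), at 0.125 (adjusted p = 0.0892), and log2(FPKM + 0.1), at 0.75 (adjusted p = 0.0550). FBN1, the main fibrillin of microfibrils, rose by 0.93, and ELN, the elastin gene, fell by 1.27 on the log2 scale.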

How the data were processed

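Polyadenylated RNA of 5 H1 libraries at day 30 (YAPi 3, GiWi 2) was sequenced on a HiSeq instrument, with a stranded kit, per the labels' protocols. Build hg19, HOMER, STAR 2.5.1, FastQC 0.11.5 and edgeR 3.16.1 appear in the submitters' processing notes without their roles. The authors deposited exon counts per gene, used as estimated counts since 34.6% of values end in 0.5; they were rounded before testing. The authors also deposited FPKM values per library, and for 11 of 47 members that table lists another transcript than the count table. Each table has 27139 genes and 3 emptied rows, not used here.

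Counts were tested with edgeR 4.0.16 (R 4.3.3, TMM factors, quasi-likelihood, filterByExpr with minimum count 10 and minimum total 15, Benjamini-Hochberg at 0.05) over all 17634 genes, and the step was tested on simulated data. TMM factors were 0.964, 0.954 and 0.926 in YAPi and 1.10 and 1.07 in GiWi. FPKM values are not TMM-scaled, so differences on that scale include this shift. Single ratios were compared with an exact permutation test over libraries. Ratios and floors use 3 counts over a group, and intervals and floors cover counting error only. Values per library are given for tested members with a call, a difference of at least 2-fold and at least 1 CPM in the higher group, and for TIMP1, TIMP2, TIMP3, TIMP4, MMP2, MMP14, MMP9, ADAMTS1 and ADAMTS9. From the pathway lists, the 3 smallest p of each list and 9 genes fixed by name were selected, of which 1 gene is not reported here. Members and lists were chosen with earlier results of these data known. Promoter sequences are from RefSeq (GRCh38.p14), and gene positions are hg19 spans from the files. Alternatives were RLE factors, library size alone, other filters, DESeq2 1.42.0, limma-voom with sample weights and limma on log2 FPKM (limma 3.58.1), each library left out, and the replicate number as a block. Replicate numbers 1 and 2 are shared by the groups, and the labels state no pairing. Figures were drawn with matplotlib 3.10.9.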

Additional observations from a re-analysis of the deposited data

How the results depend on the processing

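The counts of members that rose and fell stayed within 1.5 times of the 17 and 16 reported under all 14 alternatives, at 13 to 19 rises and 12 to 19 falls. The number of all changed genes, 10065, was 5909 to 13115 with 1 library left out, and 6070 without GiWi replicate 1 and 5909 without GiWi replicate 2 were outside that margin; these fits have fewer samples. Over 40 tested members, 493 values kept direction and side of the threshold, 21 gained a call, 37 lost one and 7 turned sign. ADAMTS14 turned to -0.0748, -0.0137 and -0.0278, MMP28 to -0.0584, -0.00267 and -0.00316, and FURIN to -0.12, -0.0668 and -0.0690, each with library size alone, log2(FPKM + 1) and log2(FPKM + 0.1), and MMP28 ran between -0.0101 without GiWi replicate 1 and 0.284 without GiWi replicate 2; none of these passed the test before or after, and the cause was not tested. Library size alone moved the median of all genes to -0.18, and log2 FPKM with pseudocounts of 1 and 0.1 to -0.08 and -0.12. Among members named per library, DESeq2 lost MMP11 (adjusted p = 0.0656) and log2(FPKM + 1) lost MMP10 (adjusted p = 0.0579), while ADAMTS1 gained a call under library size alone, limma-voom, both FPKM settings, without YAPi replicate 3 and with the block.

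The replicate number as a block gave 13576 changed genes, 19 members that rose and 19 that fell. YAPi replicate 3 is alone in its block and adds nothing to the group difference there, and the fit without that library gave 13115 changed genes. Differences between replicates 1 and 2 correlated at 0.065 across genes between the groups. This cannot decide whether the libraries are paired, since YAPi replicates 1 and 2 differed little, at a chi-square per degree of freedom of 2.13. With 2 libraries in GiWi, leaving 1 out assumes that the lone library varies like the other group. Members below 1 CPM are limited by depth.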
